A study of Rattus norvegicus with 6 samples.

Results

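The miR-10/99/100 family in plasma small extracellular vesicles was examined here, taken as 6 mature rat microRNAs (miRNAs) picked by name from the deposited count table: rno-miR-100-5p, rno-miR-99a-5p, rno-miR-99b-5p, rno-miR-10a-5p, rno-miR-10b-5p and rno-miR-99b-3p, the other arm of the miR-99b hairpin. The prefix rno-, for rat, is left out from here on. They were 6 of 764 listed miRNAs, of which 566 had at least 1 count, and all 6 had counts in every library. The diabetic group had 3 libraries, from male wild-type Sprague-Dawley rats that had been diabetic for 8 weeks. Their diabetes was induced by injecting 65 mg/kg of streptozotocin, which kills the beta cells that make insulin. Fasting glucose above 11.1 mmol/L defined diabetes. The control group had 3 libraries, from male wild-type Sprague-Dawley control rats. What the controls were injected with, if anything, was not given in the labels, nor was whether plasma was pooled. All rats were 6 to 8 weeks old when obtained. Streptozotocin diabetes follows from loss of beta cells, which limits it as a model of other kinds of diabetes. Vesicles were purified from 2 ml of plasma, and RNA of 18 to 30 nucleotides was sequenced. Total miRNA counts ran from 7490383 to 8403856 in diabetic and from 6254077 to 8930730 in control libraries. The table counts miRNAs alone, so that markers of vesicles could not be checked, and more vesicles of a kind and more of a miRNA per vesicle cannot be told apart in it.

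A miRNA guides silencing proteins to messenger RNAs that pair with its seed, the bases 2 to 8 from its 5′ end. miR-99a, miR-99b and miR-100 are known to repress the growth kinase mTOR and the receptor of insulin-like growth factor, and each is transcribed near a let-7 and a miR-125 hairpin. miR-10a and miR-10b lie within the Hox gene clusters, which pattern the body axis, and miR-10a is known to restrain inflammatory signalling in endothelium.

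The sequences show which members could act on the same targets and which could share reads. RefSeq (assembly GRCr8) gave the mature sequences of 5 of the 6 members, and miR-99a-5p is named only. They are shown 5′ to 3′, with the seed in capitals.
miR-100-5p: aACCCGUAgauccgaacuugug
miR-99b-5p: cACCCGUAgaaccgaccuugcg
miR-10a-5p: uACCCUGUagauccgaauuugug
miR-10b-5p: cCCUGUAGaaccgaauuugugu
miR-99b-3p: cAAGCUCGugucuguggguccg
miR-100-5p and miR-99b-5p have the same seed. The seed of miR-10a-5p differs from it, and that of miR-10b-5p, as annotated, differs again, so that "seed family" holds by bases 2 to 8 for the miR-99 and miR-100 type alone. miR-99b-3p has a seed of its own.

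The miR-10b hairpin shows where the difference between both miR-10 seeds lies. In the hairpin at chr3:80035859-80035967 (GRCr8, plus strand), the annotated miR-10b-5p is in capitals.
Mir10b: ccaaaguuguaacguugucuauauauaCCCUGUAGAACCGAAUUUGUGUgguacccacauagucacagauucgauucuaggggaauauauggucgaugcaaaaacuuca
The bases ua stand right before the annotated start. Read from 2 bases earlier, bases 2 to 8 would be ACCCUGU, the seed of miR-10a-5p. The count table does not say where reads began. Over 21 aligned bases miR-10a-5p and miR-10b-5p differ at 1, U12A, with positions counted from the 5′ end of miR-10a-5p. Over 22 aligned bases miR-100-5p and miR-99b-5p differ at 4 (A1C, U11A, A16C and U21C, counted from the 5′ end of miR-100-5p). miR-100-5p and miR-10a-5p, shifted by 1 base, match at 19 of 22 and share an unbroken run of 11 bases. How reads that match several miRNAs were counted was not given in the sources used here, so the values of miR-10a against miR-10b, and of miR-100 against the near-identical miR-99a, are uncertain to that extent.

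The members spanned a wide range of levels, and miR-99a-5p was the most abundant. Averaged over the 6 libraries it stood at 22900 CPM (miRNA counts scaled to a library total of 1e+06), followed by miR-10b-5p at 13970 CPM, miR-10a-5p at 7610 CPM, miR-100-5p at 1725 CPM, miR-99b-5p at 814 CPM and miR-99b-3p at 95.3 CPM. All are of similar length, but ligation and amplification can favour some sequences, which bears on comparisons between miRNAs. miR-10b-5p exceeded miR-10a-5p, miR-10a-5p exceeded miR-100-5p, and miR-99b-5p exceeded its other arm in 6 of 6 libraries. miR-99a-5p exceeded miR-10b-5p in 5 of 6 libraries and was below it in diabetic replicate 3. miR-100-5p exceeded miR-99b-5p in 3 of 3 diabetic libraries and in 0 of 3 control libraries, so these 2 had no common order. A two-sided exact sign-flip permutation test of the log2 ratio of neighbours over 6 libraries gave p = 0.0312 for the 3 pairs ordered alike in all libraries, the smallest p it can give. The permutation p was 0.0625 for miR-99a-5p over miR-10b-5p and 0.312 for miR-100-5p over miR-99b-5p. Adjusted over the 5 pairs by the Benjamini-Hochberg method, these permutation p-values were 0.0521, 0.0781 and 0.312, so 0 of 5 pairs passed 0.05, against 3 unadjusted. With 3 of the 5 pairs at the smallest permutation p, their adjusted value could not fall below 0.0521. The order itself was taken from mean levels in the same 6 libraries. No conclusion is drawn from these tests for those reasons.

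**Figure D1:**
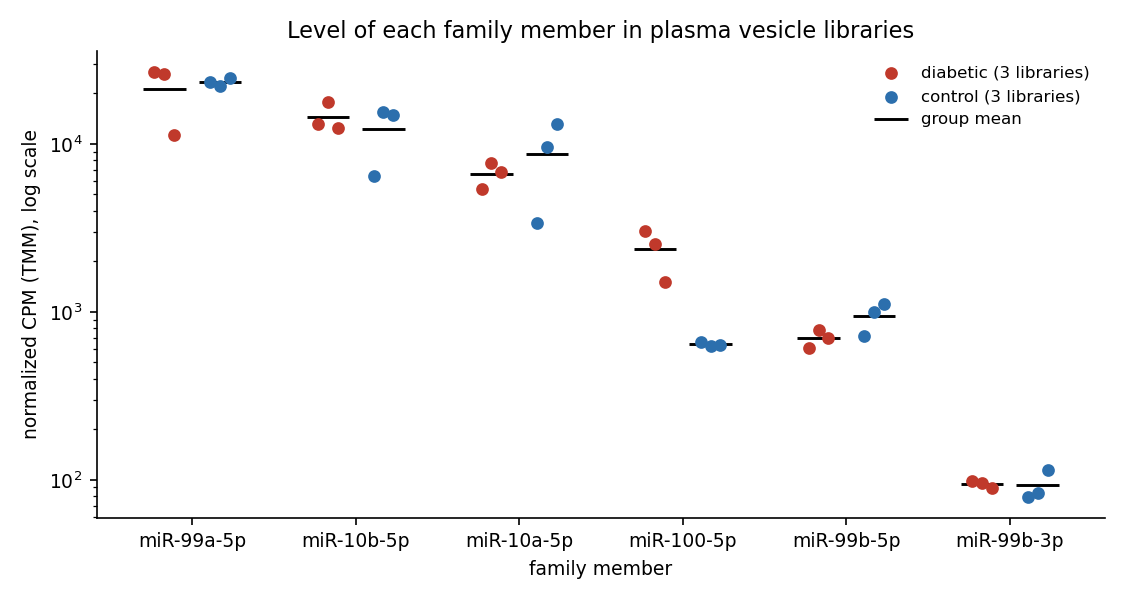
Normalized CPM (TMM-scaled, log axis) of the 6 members, in order of mean CPM, in 3 diabetic (red) and 3 control (blue) libraries, with points for libraries and lines for group means. The groups are apart for miR-100-5p, at 1508 to 3039 in diabetic and 623 to 664 in control libraries, and overlap for the other 5 members.

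miR-100-5p was the member with the largest difference between the groups. It had 28996, 24313 and 14212 counts in diabetic replicates 1, 2 and 3, and 4754, 3808 and 2919 counts in control replicates 1, 2 and 3. Scaled by the trimmed mean of M values (TMM), these were 3039, 2518 and 1508 normalized CPM in diabetic and 664, 623 and 636 normalized CPM in control libraries. All 3 diabetic libraries were higher than all 3 controls, and the control libraries lay much closer together than the diabetic ones. Group means were 2355 ± 778 normalized CPM in diabetic and 641 ± 20.8 in control libraries (SD, n = 3 each). The log2 fold change was 1.88 (SE 0.36) and ranged from 1.65 to 2.15 when each library was left out in turn.

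Its near-identical relative miR-99a-5p, the most abundant member, showed no such separation. It stood at 26800, 25940 and 11320 normalized CPM in diabetic and at 23350, 22070 and 24640 in control libraries. Diabetic replicates 1 and 2 lay above all controls and diabetic replicate 3 far below them. Its log2 fold change was -0.13 (SE 0.39), or 0.21 without diabetic replicate 3.

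After TMM scaling, both arms of miR-99b stayed within overlapping ranges. miR-99b-5p stood at 612, 782 and 696 normalized CPM in diabetic and 714, 1001 and 1113 in control libraries, a log2 fold change of -0.44 (SE 0.32). miR-99b-3p stood at 98.1, 95.4 and 88.9 normalized CPM in diabetic and 79.4, 83.4 and 115 in control libraries. Its log2 fold change was 0.02 (SE 0.33), and ran from -0.09 without control replicate 1 to 0.19 without control replicate 3. As a share of the library it was 0.009972% to 0.0125% in diabetic and 0.006371% to 0.008155% in control libraries, without overlap. These shares carry no TMM factors, and how many of all miRNAs were apart on that scale was not counted. With library size only, the log2 fold change of miR-99b-3p was 0.62, close to the median of 0.61 over all 362 tested miRNAs. Its higher share was thus no more than that of a typical miRNA.

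Among the Hox cluster members, control replicate 1 stood apart from the other 2 controls. miR-10a-5p stood at 5381, 7697 and 6848 normalized CPM in diabetic and at 3367, 9619 and 13160 in control libraries. miR-10b-5p stood at 13060, 17750 and 12470 normalized CPM in diabetic and at 6473, 15400 and 14850 in control libraries. For both, the lowest value of all belonged to control replicate 1. The diabetic values of miR-10a-5p lay between those of the controls, and the highest value of miR-10b-5p was that of diabetic replicate 2. The log2 fold change of miR-10a-5p was -0.39 (SE 0.47), or -0.80 without control replicate 1 and 0.0047 without control replicate 3. The log2 fold change of miR-10b-5p was 0.24 (SE 0.40), or -0.09 without control replicate 1.

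When all tested miRNAs were fitted together by edgeR's quasi-likelihood method, 1 of the 6 members, miR-100-5p, passed an adjusted p of 0.05, and it was higher in diabetic libraries. Of all 362 miRNAs tested, 1.66% passed in either direction, 0.552% as higher and 1.1% as lower. In TMM-scaled levels, groups did not overlap for 1 of the 6 members, against 27.9% of all tested miRNAs. Of all tested, 13.3% had the diabetic libraries above and 14.6% had them below. The median log2 fold change was -0.05 over the members and 0.02 over all tested miRNAs, and the members above and below 0 numbered 3 each. The family was picked with this contrast known, so these values describe it and are not evidence for it. miR-100-5p also passed with library size as the only scaling (13.5% of all miRNAs passed there), in DESeq2 (11.6%), in limma-voom (1.1%), with RLE factors and without a filter. It did not pass with upper quartile factors, nor without diabetic replicate 1, diabetic replicate 2, control replicate 2 or control replicate 3, fits in which the last 4 gave no call for any miRNA.

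As a share of each library, the family made up 6.24%, 6.96% and 3.69% of miRNA counts in diabetic replicates 1, 2 and 3, and 2.78%, 4.77% and 3.83% in control replicates 1, 2 and 3. Diabetic replicate 3 lay below control replicates 2 and 3, so the groups overlapped. The 95% exact binomial interval of the smallest share, control replicate 1, was 2.77% to 2.79%, so counting error was small beside the spread between libraries. The means were 5.63% ± 1.72 in diabetic and 3.79% ± 0.997 in control libraries (SD, n = 3 each). After TMM scaling the summed level was 45563 ± 11320 normalized CPM in diabetic and 45985 ± 10230 in control libraries, a log2 ratio of -0.01. That ratio was 0.57 with library size only.

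**Figure D2:**
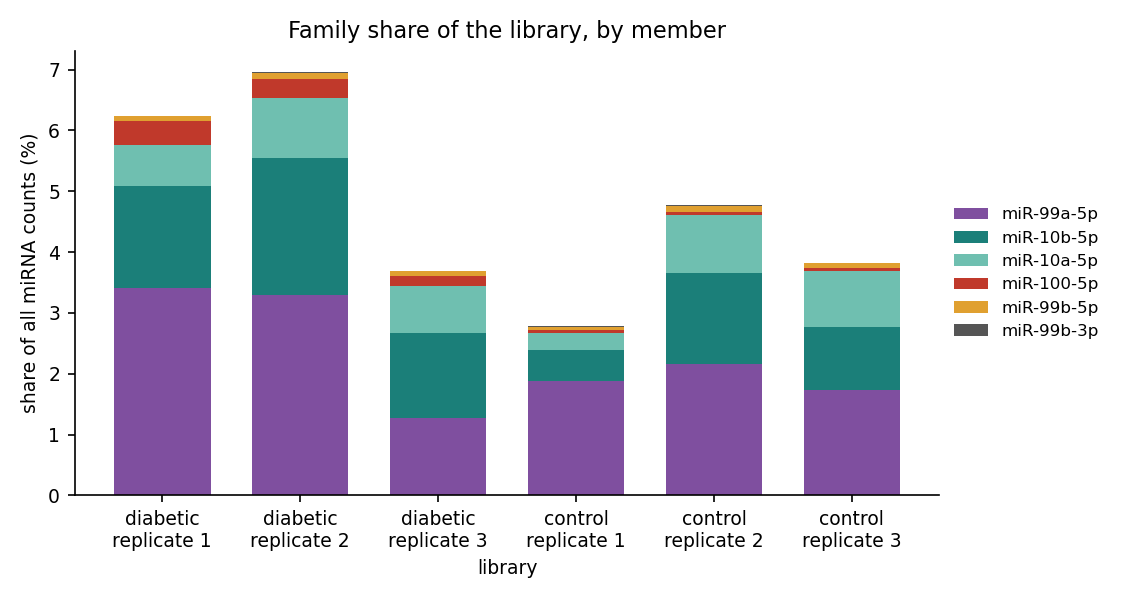
Share of all miRNA counts (%) taken by each of the 6 members in each library, stacked, with diabetic libraries on the left and control libraries on the right. The whole family took 3.69% to 6.96% in diabetic and 2.78% to 4.77% in control libraries, and the miR-100-5p segment was 0.169% to 0.387% in diabetic and 0.0446% to 0.0609% in control libraries.

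Within the family, the place of miR-100-5p differed between the groups. It made up 6.2%, 4.6% and 4.58% of family counts in diabetic libraries, against 1.92%, 1.28% and 1.17% in control libraries. miR-99a-5p made up 34.4% to 54.7% of family counts in diabetic and 45.2% to 67.4% in control libraries. miR-10b-5p made up 26.7% to 37.9% in diabetic and 18.7% to 31.6% in control libraries, and miR-10a-5p 11.0% to 20.8% in diabetic and 9.72% to 24.2% in control libraries. These 3 overlapped between the groups.

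Ratios of counts within a library do not depend on how libraries are scaled to each other, and those given here were chosen after their values were seen. Many of the ratios computed lay apart between the groups. How often ratios of other miRNAs do so was not counted, so a ratio without overlap is description only. For every 100 counts of miR-99a-5p there were 11.3, 9.71 and 13.3 counts of miR-100-5p in diabetic libraries, against 2.84, 2.82 and 2.58 in control libraries. The means, 11.5 ± 1.81 in diabetic and 2.75 ± 0.145 in control libraries (SD, n = 3 each), differed 4.17-fold. Diabetic replicate 3, low in both miRNAs, had the highest of these ratios. Relative to 100 counts of miR-99b-5p, which has the same seed, miR-100-5p had 497, 322 and 217 counts in diabetic and 93.0, 62.2 and 57.2 counts in control libraries. Relative to 100 counts of miR-10b-5p it had 23.3, 14.2 and 12.1 counts in diabetic and 10.2, 4.04 and 4.28 in control libraries, where diabetic replicate 3 and control replicate 1 came close to each other. Relative to 100 counts of miR-10a-5p, miR-100-5p had 56.5, 32.7 and 22.0 counts in diabetic and 19.7, 6.47 and 4.83 in control libraries. Diabetic replicate 3 and control replicate 1 were again close.

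miRNAs made from the same stretches of genome as the members were set beside them. In the RefSeq table, miR-100 at chr8:50798295-50798374 (GRCr8, plus strand) was followed by let-7a-2 at a distance of 6908 bases and by miR-125b-1 at 51.7 kb. miR-99a on chromosome 11 was followed by let-7c-1 at 720 bases and by miR-125b-2 at 45.2 kb. miR-99b at chr1:67350064-67350133 lay 165 bases before let-7e and 611 bases before miR-125a. These distances run from the first listed base of 1 gene to that of the other, so they include the length of the first hairpin. With the miRNAs of the Hox clusters and the other arms of the members' hairpins, 22 were listed, 21 had counts and 16 passed the filter on low counts. By edgeR, 0 of these 16 passed an adjusted p of 0.05, against 1.66% of all tested, and 3 had an unadjusted p under 0.05, against 22.7% of all tested. DESeq2 called 2 of the 16, let-7e-5p and miR-615, both lower, where it called 11.6% of all tested, and limma-voom called 0, against 1.1%. Their median log2 fold change was -0.32, against 0.02 for all tested miRNAs, with 4 above 0 and 12 below.

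The miR-100 and miR-99a clusters each give a 3p arm of miR-125b that tells them apart. Both arms are shown with the seed in capitals, since these arms differ between the hairpins, whereas both hairpins are known to give the same miR-125b-5p.
miR-125b-1-3p: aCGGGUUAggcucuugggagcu
miR-125b-2-3p: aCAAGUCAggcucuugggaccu
They differ at 4 of 22 bases. miR-125b-1-3p, of the miR-100 cluster, stood at 51.9, 50.5 and 21.1 normalized CPM in diabetic and 39.6, 44.3 and 50.8 in control libraries, a log2 fold change of -0.12 (SE 0.41). miR-125b-2-3p, of the miR-99a cluster, stood at 157, 146 and 56.9 normalized CPM in diabetic and 62.5, 50.7 and 82.1 in control libraries, a log2 fold change of 0.88 (SE 0.44), and did not pass (edgeR adjusted p = 0.231). Both had their lowest diabetic value in replicate 3, as miR-99a-5p and miR-100-5p did. With library size only, miR-125b-2-3p was the 1 call among the 16, where 13.5% of all tested miRNAs were called.

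The ratio of miR-125b-1-3p to miR-99a-5p, a miRNA of the other cluster, was nearly constant. For every 100 counts of miR-99a-5p there were 0.194, 0.195 and 0.187 counts of miR-125b-1-3p in diabetic and 0.17, 0.201 and 0.206 in control libraries. For every 100 counts of miR-100-5p, its own cluster partner, there were 1.71, 2.01 and 1.4 counts of miR-125b-1-3p in diabetic and 5.97, 7.12 and 7.98 in control libraries. miR-125b-2-3p had 0.586, 0.563 and 0.502 counts per 100 of its own cluster partner miR-99a-5p in diabetic and 0.268, 0.23 and 0.333 in control libraries. Its means were 0.551 ± 0.0433 in diabetic and 0.277 ± 0.0524 in control libraries (SD, n = 3 each). The ratio of miR-125b-2-3p to 100 counts of miR-125b-1-3p was 303, 289 and 269 in diabetic and 158, 114 and 162 in control libraries, again without overlap. The share of all such ratios that lie apart was not counted.

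**Figure D3:**
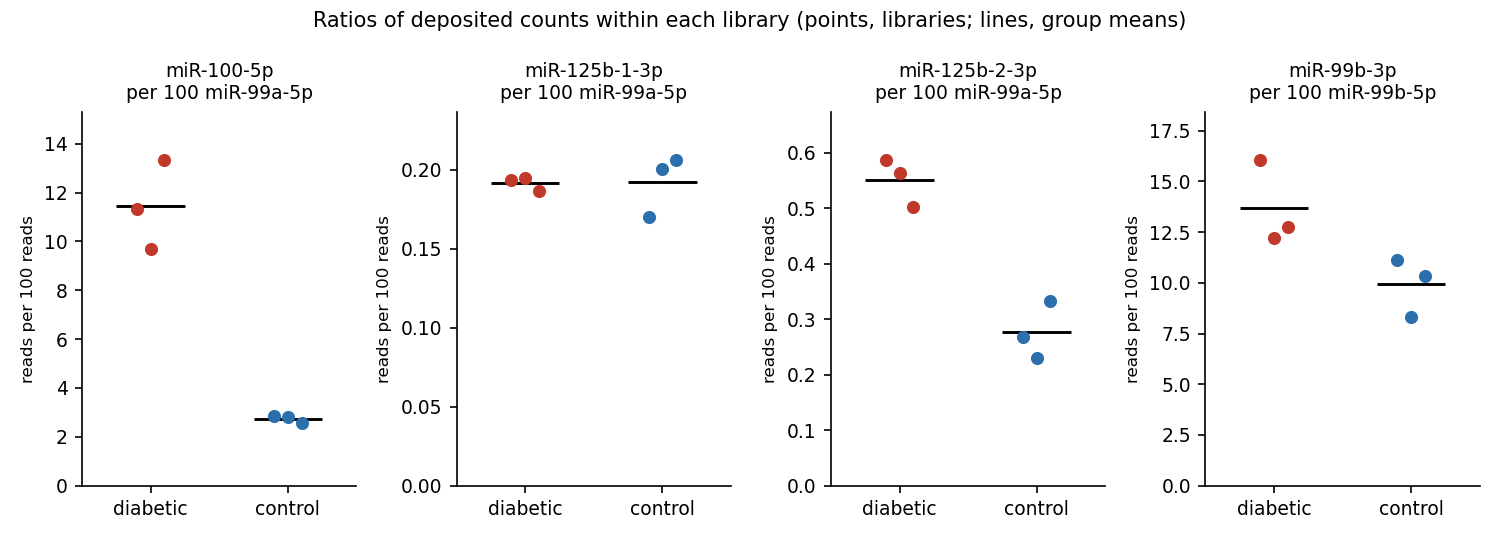
Counts of 1 miRNA per 100 counts of another in the same library, from the deposited counts, in diabetic (red, left) and control (blue, right) libraries, with points for libraries and lines for group means. The groups are apart for miR-100-5p and miR-125b-2-3p over miR-99a-5p and for miR-99b-3p over miR-99b-5p, and overlap for miR-125b-1-3p over miR-99a-5p, whose group means are 0.192 each. How often ratios of other miRNAs lie apart was not counted.

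The let-7 miRNAs, known to hold back growth genes, have members in both clusters, and none of these passed. let-7c-5p, which a second hairpin on chromosome 7 also gives, stood at 29670, 25210 and 20800 normalized CPM in diabetic and 76990, 28060 and 29710 in control libraries, where control replicate 1 held the high value. Per 100 counts of miR-99a-5p, let-7c-5p had 110.7, 97.18 and 183.8 counts in diabetic and 329.8, 127.1 and 120.6 in control libraries, which overlap. Its log2 fold change was -0.83 (SE 0.45). let-7a-5p, which another hairpin on chromosome 17 also gives, stood at -0.69 (SE 0.38) on the same scale. let-7c-1-3p stood at -1.45 (SE 0.55), from at most 36 counts in a library. let-7a-2-3p, at 1 count in each diabetic and 0 in each control library, was too rare to compare. let-7 miRNAs are near-identical and can share reads.

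In the miR-99b cluster, let-7e-5p stood at 15.3, 16.7 and 18.1 normalized CPM in diabetic and 26.1, 46.3 and 70.6 in control libraries, with no overlap. Its log2 fold change was -1.51 (SE 0.42), which did not pass (edgeR adjusted p = 0.0877). Per 100 counts of miR-99b-5p it had 2.5, 2.13 and 2.61 counts in diabetic and 3.66, 4.63 and 6.34 in control libraries. By the same ratio miR-125a-5p had 47.74, 32.31 and 27.8 counts in diabetic and 28.05, 59.17 and 60.35 in control libraries, which overlap. miR-125a-5p had a log2 fold change of -0.99 (SE 0.45), miR-125a-3p of -0.62 (SE 0.35) and let-7e-3p of 0.32 (SE 0.48), and none of these passed.

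**Figure D4:**
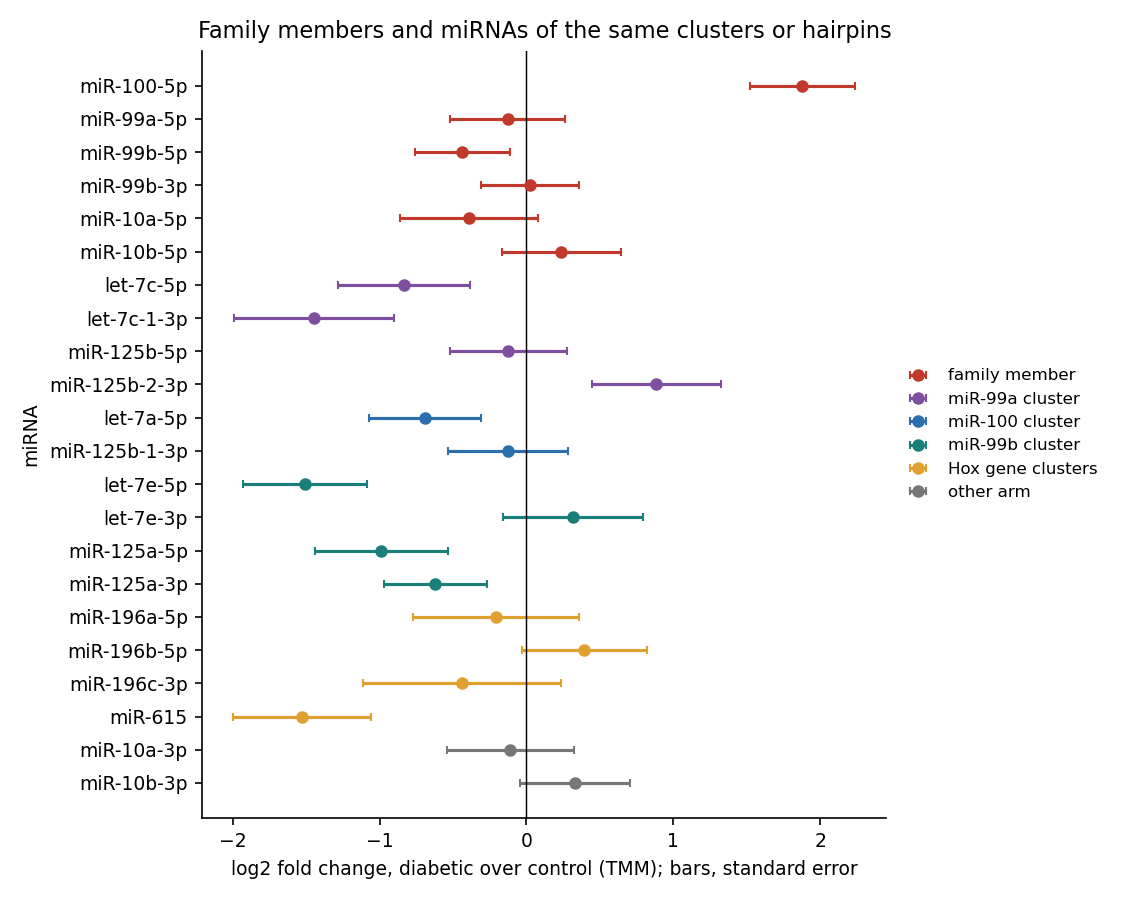
Log2 fold change, diabetic over control, with its standard error (bars), for the 6 members and the 16 tested miRNAs of the same clusters or hairpins, coloured by group. miR-100-5p stands at 1.88, the next highest, miR-125b-2-3p, at 0.88, and the lowest, miR-615, at -1.53.

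The other arms of the hairpins of miR-10a, miR-10b, miR-99a and miR-100 were rare, and miR-99b-3p was less so. The hairpin of miR-99b, at chr1:67350064-67350133 (GRCr8, plus strand), is the one from which both arms are members, shown in capitals.
Mir99b: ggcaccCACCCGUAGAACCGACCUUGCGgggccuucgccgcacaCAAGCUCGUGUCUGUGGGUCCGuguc
For every 100 counts of its 5p arm there were 16.0, 12.2 and 12.8 counts of its 3p arm in diabetic and 11.1, 8.34 and 10.3 in control libraries. All diabetic libraries lay above all controls, and diabetic replicate 2 and control replicate 1 were the nearest. How often the arms of other hairpins lie apart in this way was not counted. miR-10a-3p had 0.149 to 0.179 counts per 100 of miR-10a-5p in diabetic and 0.124 to 0.203 in control libraries, and miR-10b-3p had 0.126 to 0.166 counts per 100 of miR-10b-5p in diabetic and 0.103 to 0.222 in control libraries. Both overlapped. miR-99a-3p had 2 counts in diabetic replicate 1 and 0 in the other libraries, and miR-100-3p 1 count in control replicate 3 and 0 in the others. A count of 0 allowed up to 0.357 to 0.401 CPM in diabetic and 0.336 to 0.48 CPM in control libraries, for counting error only.

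Other miRNAs of the Hox clusters were far below miR-10a-5p and miR-10b-5p. miR-196c lies 52.2 kb from miR-10a on chromosome 10, between their first listed bases. The 7 listed entries of miR-196 and miR-615 summed to 18.3 to 27.9 normalized CPM in diabetic and 17.5 to 33.8 in control libraries, and 4 were tested. miR-196b-5p had a log2 fold change of 0.39 (SE 0.42), miR-196a-5p of -0.21 (SE 0.56) and miR-196c-3p of -0.44 (SE 0.67). miR-615, which lies in the Hoxc cluster, had 26, 21 and 19 counts in diabetic and 35, 36 and 43 in control libraries, a log2 fold change of -1.53 (SE 0.47), and did not pass (edgeR adjusted p = 0.108).

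The profiles over the 6 libraries were compared by the root-mean-square difference of log2 normalized CPM after each miRNA's mean was taken off, a measure of likeness that carries the group difference with it. Closest to miR-100-5p among 361 others were miR-532-5p, at 0.337, the endothelial miR-126a-5p, at 0.361, and the smooth muscle miR-145-5p, at 0.366. Of these 3, 0 were still among its closest 3 without diabetic replicate 1, and 1 was without diabetic replicate 2, control replicate 1 or control replicate 3. Family members were not near it: miR-10b-5p ranked 119 of 361, miR-99b-3p 130, miR-99a-5p 167, miR-99b-5p 226 and miR-10a-5p 246. miR-125b-2-3p ranked 24 and its own cluster partner miR-125b-1-3p ranked 172. Closest to miR-99a-5p was miR-125b-1-3p, at 0.0885, while miR-125b-2-3p ranked 74. Closest to miR-10a-5p was miR-10a-3p, from the same hairpin, at 0.261. miR-10b-5p had miR-490-3p as its closest, at 0.215, from at most 23 counts in a library, miR-99b-5p had miR-150-3p, at 0.18, and miR-99b-3p had miR-30c-2-3p, at 0.148.

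Marker miRNAs of cells that release vesicles into plasma were set beside these values. All 24 listed markers had counts, and 0 of the 24 passed in the edgeR fit, against 1.66% of all tested. The 4 endothelial markers summed to 6818 to 10350 normalized CPM in diabetic and 4444 to 5412 in control libraries. miR-126a-3p made up 90.2% to 94.4% of that sum, and 3 of the 4 had a log2 fold change above 0, while miR-222-3p stood at -0.54 with all diabetic libraries below all controls. The 4 smooth muscle markers summed to 33800 to 54300 in diabetic and 16540 to 26490 in control libraries. miR-143-3p made up at least 98.0% of it, and 3 of the 4 lay above 0, while miR-145-3p stood at -0.71 with all diabetic libraries below all controls. The 4 erythrocyte markers summed to 40220 to 72950 in diabetic and 87430 to 187200 in control libraries. miR-486 made up 85.4% to 95.3% of it, and 3 of the 4 lay below 0, miR-144-3p at -0.22, while miR-144-5p stood at 0.52 with all diabetic libraries above all controls. After TMM scaling, none of these 3 sums overlapped between the groups, as was so for 27.9% of single miRNAs tested. In deposited counts, miR-486 ran from 354352 to 655421 in diabetic and from 432792 to 1073661 in control libraries, which overlap. Whether the sums stay apart under other scalings was not tested. The 4 liver markers, at 45370 to 75610 in diabetic and 39270 to 299700 in control libraries, the 4 leukocyte and platelet markers, at 6838 to 7860 in diabetic and 2843 to 7564 in control libraries, and the 4 striated muscle markers, at 2667 to 12880 in diabetic and 1177 to 15150 in control libraries, overlapped. The part of these cells in the level of miR-100-5p was not tested.

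The scaling between libraries set the sign of most members. The TMM factors were 1.27, 1.27 and 1.12 in diabetic replicates 1, 2 and 3 and 0.802, 0.978 and 0.702 in control replicates 1, 2 and 3, so they differed between the groups. With library size only, the median log2 fold change of all 362 miRNAs was 0.61, against 0.02 with TMM, and 6 of 6 members lay above 0, against 3 of 6 with TMM, 2 of 6 with RLE factors and 1 of 6 with upper quartile factors. Relative to the median of all tested miRNAs under each scaling, miR-100-5p stood at 1.82 to 1.86. A change of scaling moves all miRNAs by nearly the same amount. The distance of a member from the median could therefore hardly change and is no check of its size. miR-10b-5p stood 0.19 to 0.22 above that median, and miR-99a-5p, miR-10a-5p and miR-99b-5p stood below it, at -0.20 to -0.14, -0.44 to -0.41 and -0.48 to -0.45. In the authors' deposited table, which scales by library size, the log2 ratio of mean CPM, diabetic over control, was 2.46 for miR-100-5p, 0.79 for miR-10b-5p, 0.61 for miR-99b-3p, 0.47 for miR-99a-5p, 0.19 for miR-10a-5p and 0.13 for miR-99b-5p.

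**Figure D5:**
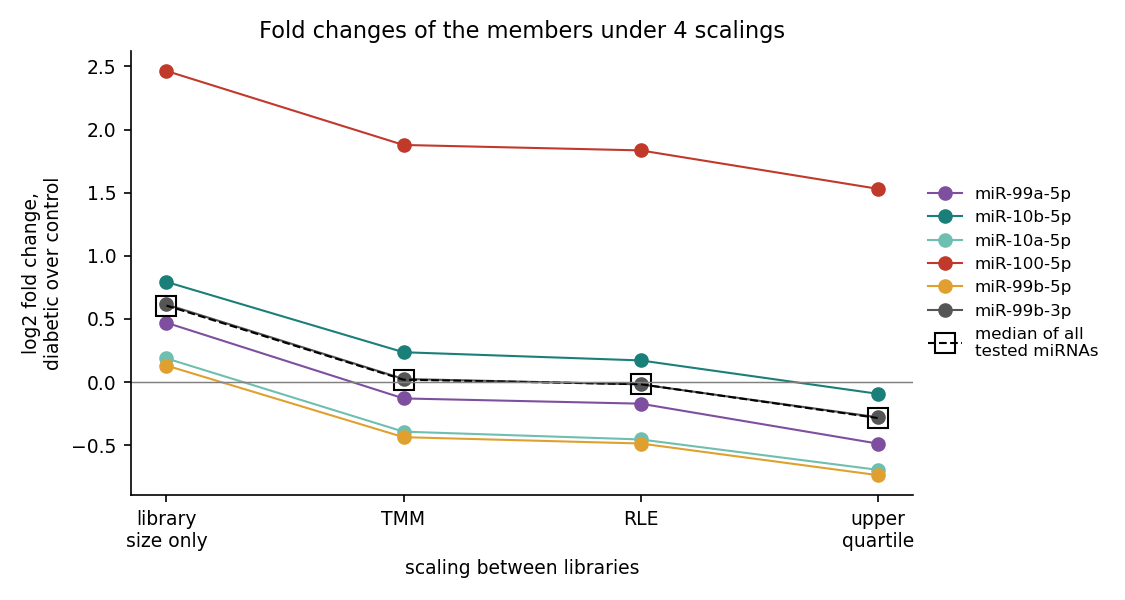
Log2 fold change, diabetic over control, of the 6 members and the median of the 362 tested miRNAs (open squares) under 4 scalings between libraries. The median lies between 0.61 with library size only and -0.28 with upper quartile factors, and miR-100-5p is above it by 1.82 to 1.86 under each. Scaling moves all miRNAs nearly alike, so that distance could hardly change.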

How the data were processed

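The authors deposited whole-number counts per mature miRNA for 6 libraries, equal in all 4584 cells of both tables, and CPM values, recomputed here within 0.006 in all cells. Their log2 ratios of mean CPM are quoted as theirs, and their deposited p-values were not used. Per the submitters' processing notes, rn6 was the genome build. The aligner, counter and miRNA release are not given in the sources used here. Groups came from the sample titles. Nothing states separate animals, so errors and p-values reflect differences between these samples, in part perhaps technical. Libraries of 1 group differed beyond sampling noise (chi-square per degree of freedom of at least 803.5).

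The deposited counts were filtered with filterByExpr (minimum count 10, minimum total 15), scaled by TMM and tested two-sided by quasi-likelihood in edgeR 4.0.16 under R 4.3.3, with p-values adjusted over 362 miRNAs by the Benjamini-Hochberg method. The script was tested on simulated data. Alternatives used DESeq2 1.42.0 and limma 3.58.1. Standard errors were the fold change over the square root of F. Normalized CPM are counts over the TMM-scaled library size. Ratios of neighbouring members used a pseudocount of 0.5 counts, and likeness used log2 values with a prior count of 2. Intervals and limits of 3 counts cover counting error only. Sequences were from RefSeq (GRCr8). Named were all members, listed partner miRNAs and the profiles most like them. Members and lists were chosen with earlier results of these data known.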

Additional observations from a re-analysis of the deposited data

How the results depend on the processing

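The number of calls over all miRNAs, 6 (2 higher, 4 lower), was 49 with library size only (45 higher, 4 lower), 2 with upper quartile factors (0 higher, 2 lower) and 42 in DESeq2 (18 higher, 24 lower), so the balance of directions turned with the scaling, and ran from 0 to 49 when each library was left out (49 without control replicate 1, 22 without diabetic replicate 3 and 0 without any of the other 4, where edgeR gave 57 to 59 at an unadjusted p under 0.05). Replicate numbers are shared between the groups with no stated link, and same-numbered libraries' deviations correlated at 0.28, 0 and 0.25, so they were not taken as pairs. With a replicate block, 57 miRNAs and 1 of the partner miRNAs (let-7e-5p) were called, and not every library correlated best with its own number. The 0 calls among partner miRNAs became 1 with library size only and 2 in DESeq2, and ran from 0 to 2 on leaving out each library, with 2 (let-7e-5p and miR-125a-5p) without control replicate 1.

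With library size only, log2 fold changes were 2.46 for miR-100-5p, 0.47 for miR-99a-5p, 0.13 for miR-99b-5p, 0.62 for miR-99b-3p, 0.79 for miR-10b-5p and 0.57 for the summed family. With upper quartile factors, miR-99b-5p was at -0.74 and miR-99b-3p at -0.28. On leaving out each library the ranges were 1.65 to 2.15 for miR-100-5p, -0.33 to 0.21 for miR-99a-5p, -0.62 to -0.32 for miR-99b-5p, -0.09 to 0.19 for miR-99b-3p, -0.80 to 0.0047 for miR-10a-5p, -0.09 to 0.44 for miR-10b-5p and -0.18 to 0.17 for the family. Beyond the scaling itself, the cause was not tested. The lowest count of any member in a library was 510, of miR-99b-3p.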
